A study of Mus musculus with 12 samples.

Results

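Osteopontin, the product of Spp1, and CD44, a cell-surface receptor that binds it, were described in mouse Colon26 tumours. The members were the symbols Spp1 and Cd44, 2 of the 19921 symbols in the tables, and both passed the filter on low counts. The pair was chosen because Spp1 was among the most abundant transcripts and moved opposite to other macrophage genes in these libraries. The values of Spp1 are therefore given as a description with no test, and those of Cd44 with the test across all genes. Cd44 too was chosen with earlier results of these data known, and its p-values do not allow for that choice.

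Osteopontin is a secreted, phosphorylated glycoprotein first studied in bone, and in tumours it is made by macrophages and by many carcinoma cells. It binds integrins through an RGD motif and binds CD44, and proteases such as thrombin and matrix metalloproteinases cut it into fragments with altered receptor binding. CD44 is the main receptor for hyaluronan. It is carried by most leukocytes, rises on T cells after activation, and is widely found on carcinoma cells.

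The series asked how a peptide of the chromatin protein HMGN1 and an antibody that blocks the checkpoint ligand PD-L1 act on tumours, alone and together. BALB/c wild-type mice carried 200000 implanted Colon26 cells, a mouse colon carcinoma line, in the right flank, and tumours were taken on day 10. The combination group received both agents, the anti-PD-L1 group the antibody alone (clone 10F.9G2, 200 µg into the peritoneum on days 4 and 8), the minP1 group the peptide alone (0.08 µg into the peritoneum on day 9), and no injection is named for the control group. Each group had 3 libraries, each from a separate mouse, and the sources used here give neither age nor sex of the mice. For the combination only the title mentions the peptide, so what is said of that group depends on its title being right. Tissue was dissociated with collagenase and DNase I and spun over 40% Percoll to deplete dead and tumour cells, so the cells profiled are those the layer left. Transcript 5′ ends were counted as tags.

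Total counts ran from 133917 to 473273 per library, with means of 168872 ± 31806 in the combination, 266582 ± 70048 in anti-PD-L1, 303587 ± 24308 in minP1 and 378077 ± 93793 in control (SD, n = 3 each). Counting error was small for Spp1, whose counts of 434 to 3434 carry a coefficient of variation of 1.71% to 4.8%. It was larger for Cd44, whose counts of 86 to 289 carry 5.88% to 10.8%. The small noncoding RNA Bc1, with Lrrc17, which had nearly equal counts in each library, took 2.49% to 6.32% of combination counts, 2.35% to 4.42% of anti-PD-L1 counts, 1.497% to 4.17% of minP1 counts and 1.36% to 2.34% of control counts. Judged by the differences in counts between replicates, 1 library in each group stood apart from the rest. These were anti-PD-L1 replicate 1, minP1 replicate 2, control replicate 1 and combination replicate 3. Each had the highest Bc1 share of its group, except combination replicate 3, which had the lowest. Results are given with and without anti-PD-L1 replicate 1 and minP1 replicate 2 together where that matters. Control replicate 1 and combination replicate 3 were left out only singly, so the control and combination groups were not more uniform by this measure. In bulk tumour samples, fewer cells of a type and less RNA per cell cannot be told apart.

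Spp1 (ENSMUSG00000029304.14) lies on the plus strand of chromosome 5, from 104435118 to 104441050, and Cd44 (ENSMUSG00000005087.17) on the minus strand of chromosome 2, from 102811141 to 102901665 (GENCODE M21, GRCm38). An unclassified transcript, Gm42793, overlaps Spp1 on the same strand from 104435121 to 104436372, and the sources used here do not say whether the counting split their reads. A small nuclear RNA gene, Gm23731, lies within Cd44 on the opposite strand. A 5′ tag is read at the transcript start, so the 250 bases before each RefSeq start (GRCm38.p6) are shown, at chr5:104434861-104435110 on the plus strand for Spp1 and chr2:102901666-102901915 on the minus strand for Cd44. Both are written 5′ to 3′ on the strand of the gene, with matches to the motifs searched in capitals.
Spp1: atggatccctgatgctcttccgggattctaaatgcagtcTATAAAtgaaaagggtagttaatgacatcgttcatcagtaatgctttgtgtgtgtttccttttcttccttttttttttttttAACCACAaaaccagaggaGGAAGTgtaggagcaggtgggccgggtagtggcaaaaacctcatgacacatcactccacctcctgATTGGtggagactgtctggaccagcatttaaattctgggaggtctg
Cd44: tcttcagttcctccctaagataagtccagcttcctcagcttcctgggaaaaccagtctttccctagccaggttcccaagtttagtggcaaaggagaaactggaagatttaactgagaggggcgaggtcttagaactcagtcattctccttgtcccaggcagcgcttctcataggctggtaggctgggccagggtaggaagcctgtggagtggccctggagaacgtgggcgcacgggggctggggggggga
The Spp1 window held 1 match each to the RUNX letters AACCACA, starting 129 bases before the transcript start, the ETS letters GGAAGT, at 111 bases, the CCAAT box on the opposite strand (printed as ATTGG), at 46 bases, and the TATA box letters TATAAA, at 211 bases. Both strands were searched and no matches overlapped. Of 32841 windows of the same length, 4.4% hold the RUNX letters, 19.7% the ETS letters, 33.9% CCAAT and 12.4% TATAAA. Neither window held the AP-1 letters TGANTCA (6.75% of windows) or the GC box GGGCGG (32.7%), and the Cd44 window held none of the 6 motifs. The Spp1 window was 43.6% G and C and the Cd44 window 56.4%, against a median of 52.4%.

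Spp1 was lower in the combination than in control, whereas with either agent alone its mean was close to control. Levels are in CPM, the gene's counts relative to the TMM-scaled total of the tested genes' counts. Combination libraries held 3705, 4171 and 5044 CPM of Spp1 (replicates 1 to 3), anti-PD-L1 libraries 4672, 8201 and 9247, minP1 libraries 7947, 5299 and 9356, and control libraries 7645, 6435 and 7690. All 3 combination libraries lay below every control and every minP1 library, and 2 of the 3 lay below every anti-PD-L1 library. Of the 5443 genes tested, 45.9% had groups that did not overlap in the combination against control and 37.5% against minP1. Group means were 4307 ± 680 CPM in the combination, 7373 ± 2397 in anti-PD-L1, 7534 ± 2060 in minP1 and 7257 ± 712 in control (SD, n = 3 each). The combination stood lowest in that order, and the other 3 groups overlapped one another. The lone treatments were the more variable groups, each with 2 libraries above every control and 1 below every control.

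Even where lowest, Spp1 stayed an abundant transcript. By count it ranked 34, 37 and 16 among the 19921 symbols in the combination libraries, 30, 11 and 11 in anti-PD-L1, 11, 24 and 7 in minP1, and 10, 13 and 10 in control. Its fitted log2 fold change was -0.75 ± 0.26 (SE) in the combination against control, 1.68-fold lower, -0.78 ± 0.26 against anti-PD-L1 and -0.81 ± 0.26 against minP1. It was 0.02 ± 0.26 in anti-PD-L1 against control and 0.05 ± 0.26 in minP1 against control. The difference between the peptide's change with the antibody and its change without it, the interaction, was -0.83 ± 0.37 on the log2 scale.

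Cd44 went the other way and was highest in the combination. Combination libraries held 1502, 1707 and 1631 CPM of Cd44, anti-PD-L1 libraries 786, 686 and 765, minP1 libraries 704, 725 and 649, and control libraries 381, 314 and 571. Every combination library lay above all 9 other libraries, and every library of either lone treatment lay above every control. Group means were 1613 ± 103 CPM in the combination, 745 ± 52.6 in anti-PD-L1, 692 ± 39.4 in minP1 and 422 ± 133 in control (SD, n = 3 each). In that order the neighbours anti-PD-L1 and minP1 overlapped. Its rank by count was 69 to 91 in the combination, 174 to 200 in anti-PD-L1, 177 to 216 in minP1 and 234 to 437 in control.

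**Figure D1:**
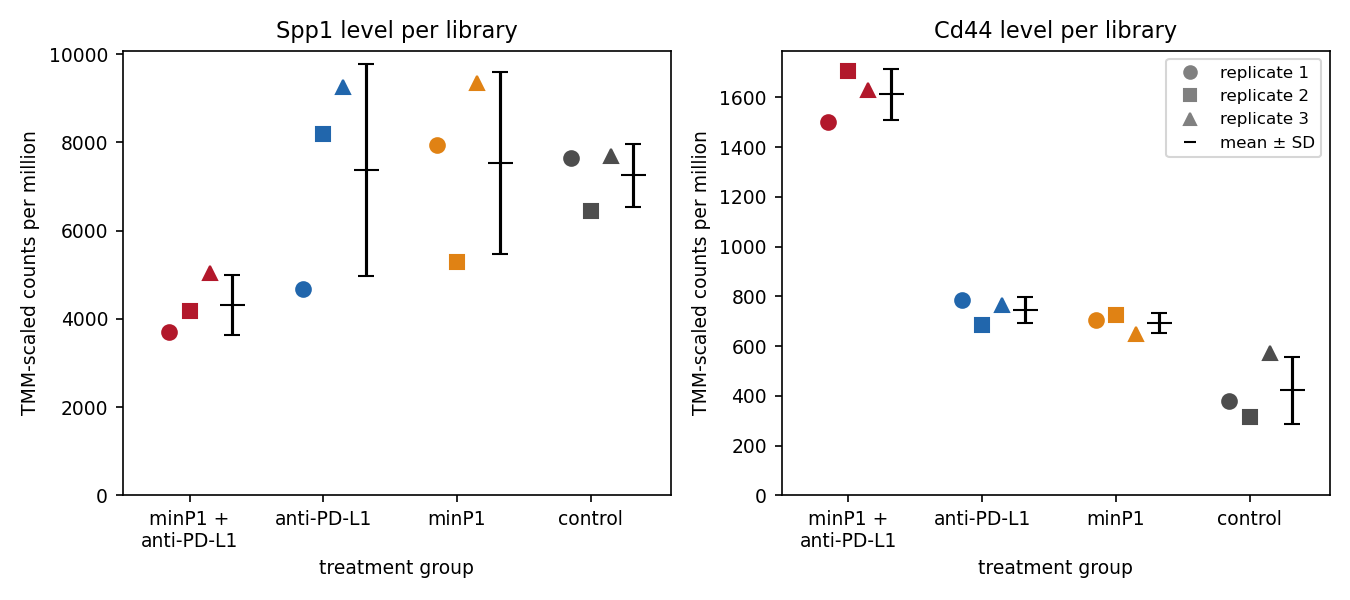
Level of Spp1 (left) and Cd44 (right) in each library, in CPM after TMM scaling, with 1 point per library and a bar for the group mean and its SD (n = 3 each), the axes starting at 0. The combination libraries are the lowest Spp1 group, at 3705 to 5044 CPM, and the highest Cd44 group, at 1502 to 1707 CPM.

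Cd44 passed the test in each comparison that involved the combination. It was 3.80-fold higher in the combination than in control (log2 fold change 1.93 ± 0.23, adjusted p = 3.53e-06, edgeR's quasi-likelihood test with Benjamini-Hochberg adjustment). In that comparison 34.8% of the 5443 genes tested passed, and 45.9% had groups that did not overlap. It was 2.17-fold higher in the combination than in anti-PD-L1 (1.12 ± 0.23, adjusted p = 0.00535, edgeR), where 6.94% of genes passed and 27.3% did not overlap. Against minP1 it was 2.33-fold higher (1.22 ± 0.23, adjusted p = 0.000743, edgeR), where 20% passed and 37.5% did not overlap. Each of these differences was seen in 3 of 3 combination libraries. They stayed past the threshold under every alternative run.

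The lone treatments gave smaller differences in Cd44 that did not pass. Anti-PD-L1 libraries were 0.81 ± 0.23 above control on the log2 scale (adjusted p = 0.0782, edgeR), in a comparison where 1.12% of genes passed and 23.5% did not overlap. That difference did pass with DESeq2 (0.80, adjusted p = 0.0275), without control replicate 3, the control with the most Cd44 (1.10, adjusted p = 0.0267), and without minP1 replicate 2 (0.84, adjusted p = 0.0442). The minP1 libraries were 0.70 ± 0.23 above control (adjusted p = 0.428, edgeR). In minP1 against control 0% of genes passed in edgeR, 383 had an unadjusted p under 0.05, DESeq2 called 1, and 12.4% did not overlap. The interaction for Cd44 was 0.41 ± 0.32 (adjusted p = 0.692, edgeR), where 0% of genes passed in edgeR, 600 had an unadjusted p under 0.05 and DESeq2 called 20. Whether both agents together changed Cd44 by more than the sum of their separate log2 changes was not resolved at this depth and spread. All comparisons against control share the same 3 control libraries.

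The ratio of Spp1 to Cd44 counts within a library needs no scaling between libraries. Combination libraries held 2.47, 2.44 and 3.09 Spp1 counts per Cd44 count, anti-PD-L1 libraries 5.95, 11.96 and 12.1, minP1 libraries 11.3, 7.31 and 14.4, and control libraries 20.1, 20.5 and 13.5. The combination ratios were the 3 lowest of the 12. The ratio averaged 2.67 ± 0.369 in the combination, 10.00 ± 3.51 in anti-PD-L1, 11.01 ± 3.57 in minP1 and 18.0 ± 3.93 in control (SD, n = 3 each). On the log2 scale it differed by -2.74 between the combination and control, by -0.90 between anti-PD-L1 and control and by -0.74 between minP1 and control, with a pooled SD within groups of 0.43. As the ratio contains Spp1, it is given with no test.

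**Figure D2:**
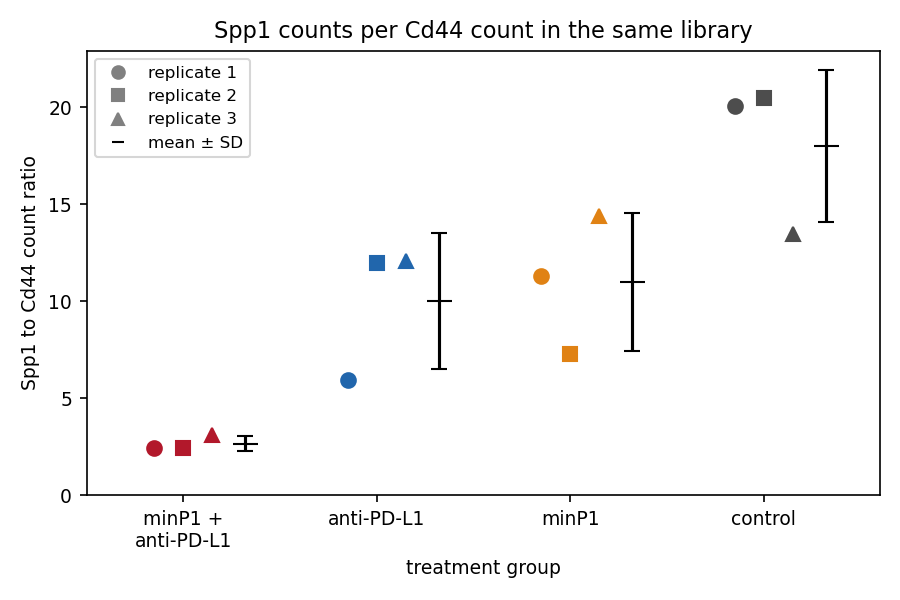
Spp1 counts divided by Cd44 counts in each library, on a linear axis from 0, with 1 point per library (shape for the replicate) and a bar for the group mean and its SD (n = 3 each). The combination libraries lie at 2.44 to 3.09, below the 9 other libraries at 5.95 to 20.5.

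In both lone treatments the library with the highest Bc1 share had the least Spp1, but the 2 measures did not run in one order in every group. The library with the highest share in anti-PD-L1 (replicate 1, 4.42%) and the one in minP1 (replicate 2, 4.17%) had the least Spp1 of their groups, at 4672 and 5299 CPM. Combination replicate 3, with the lowest share of its group (2.49%), had the most Spp1 there, 5044 CPM, but replicate 2, with the highest share (6.32%), did not have the least. In control, replicate 1 had the highest share (2.34%) with 7645 CPM of Spp1 and replicate 2 the least Spp1 (6435 CPM) with 1.89%. In anti-PD-L1, replicate 3 had more of both (3.56%, 9247 CPM) than replicate 2 (2.35%, 8201 CPM). With the Bc1 share as a covariate, the Spp1 difference between the combination and control was -0.26 ± 0.24 (SE, log2), against -0.75 without it. It was -0.42 ± 0.21 against minP1 and -0.62 ± 0.19 against anti-PD-L1. The Cd44 difference between the combination and control was 1.94 ± 0.27 with that covariate (adjusted p = 1.47e-05, edgeR), as large as without it. The part of the Bc1 share in the Spp1 differences was not tested.

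**Figure D3:**
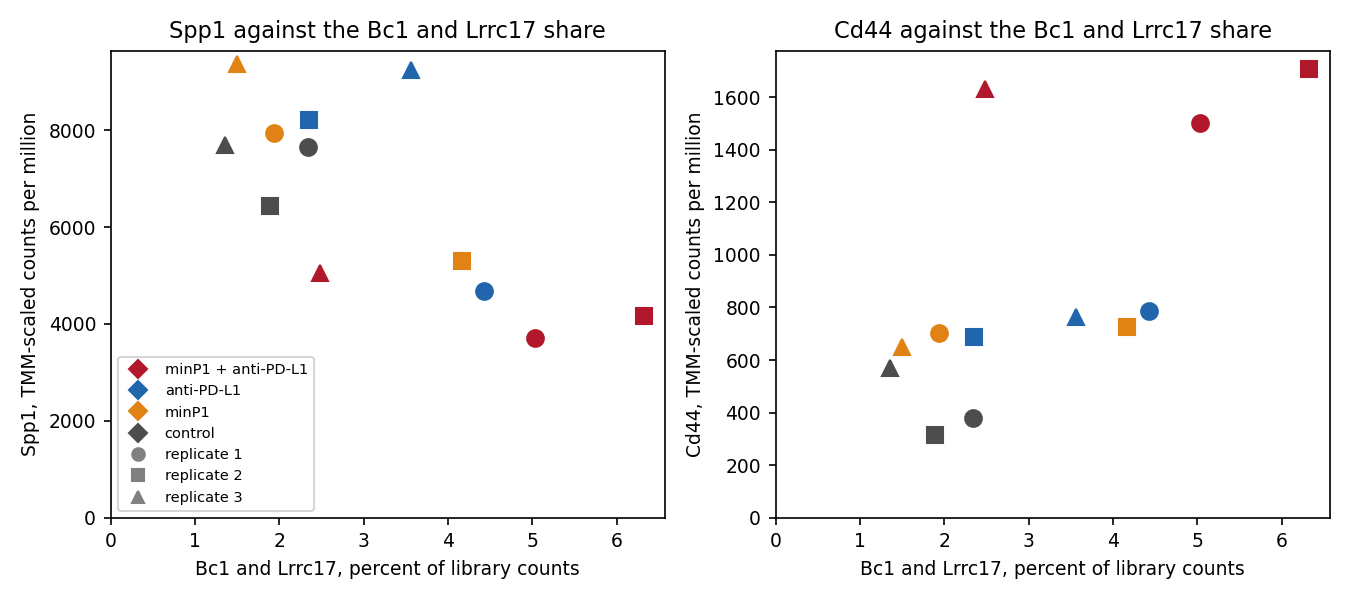
Spp1 (left) and Cd44 (right) in CPM against the share of library counts taken by Bc1 and Lrrc17 in percent, 1 point per library, with colour for the group and shape for the replicate. In the left panel anti-PD-L1 replicate 1 (4.42%, 4672 CPM) and minP1 replicate 2 (4.17%, 5299 CPM) sit near the combination libraries, and in the right panel they sit with their own groups.

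Of 69 symbols in 8 lists of the osteopontin and CD44 pathway, 57 were in the tables and 33 were tested. In the combination against control 13 of these 33 rose and 9 fell, a share of 66.7% beside the 34.8% of all genes. The lists were chosen with earlier results of these data known, so that share is a description and not a test of the pathway. A gene enters the test when at least 3 libraries reach a level worth 10 counts at the median depth, so the share describes the tested members only. Mmp9, Has1 and Tnfaip6 reached it in combination libraries alone, so their entry required them to be high there and their calls add no support. Of the 30 tested members other than these, 10 rose and 9 fell. Among the 9, Plau, Adam17 and Ets1 reached that level in no combination library. They entered the test through libraries of the other groups alone, so their calls add no support either. In all, 12 of the 22 called genes kept the call in all 12 fits that left out a library, and 13 kept it with the Bc1 share as a covariate, where Cd74 and Hmmr passed in addition. Without anti-PD-L1 replicate 1 and minP1 replicate 2, 21 of the 22 kept it. The values below are CPM, or log2 fold changes with their SE, and adjusted p-values are edgeR's over all 5443 genes.

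Among the integrin chains that bind osteopontin, 4 of the 10 listed were tested, and 2 rose and 1 fell in the combination against control. Itgav, the alpha v chain of the RGD-binding integrins, rose to 279 ± 18.3 CPM in the combination, against 102 ± 32.5 in control (1.43 ± 0.28, adjusted p = 0.000487). It also rose against minP1 (0.86 ± 0.28, adjusted p = 0.0300) and not past the threshold against anti-PD-L1 (0.72 ± 0.28, adjusted p = 0.114). Itga4, which pairs with beta 1 on leukocytes, rose on 22 counts in the combination and 11 in control (2.14 ± 0.64, adjusted p = 0.0126). That call was lost without combination replicate 3 (adjusted p = 0.143). Itgb5, a beta partner of the alpha v chain, fell (-1.26 ± 0.44, adjusted p = 0.0302), a call lost without control replicate 2 or any 1 of the combination libraries (adjusted p up to 0.153), with the Bc1 covariate (adjusted p = 0.317) and with DESeq2 (adjusted p = 0.0589). Itgb1, the common beta 1 chain, had 592 ± 132 CPM in the combination and 448 ± 71.4 in control (adjusted p = 0.182). The 4 chains not tested summed to 22 raw counts in the combination and 86 in control. Mean library totals were 168872 in the combination and 378077 in control, so these raw counts are not on one scale. The median log2 fold change of the tested chains was 0.91, and that of all genes tested -0.06.

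The SIBLING family, the group of bone and tooth matrix proteins to which osteopontin belongs, had 2 further members in the tables. They were too low to test, with 2 raw counts in the combination, 3 in anti-PD-L1, 4 in minP1 and 1 in control. Spp1 alone of the family members in the tables passed the filter on low counts.

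Enzymes that can cut osteopontin were mostly higher in the combination, with 4 of 6 tested members risen and 1 fallen against control. Mmp12, the macrophage elastase, had 394 ± 71.2 CPM in the combination, 145 ± 66.0 in anti-PD-L1, 30.4 ± 16.1 in minP1 and 17.9 ± 16.4 in control. Against control it rose in the combination (4.26 ± 0.44, adjusted p = 9.03e-07) and in anti-PD-L1 (2.78 ± 0.46, adjusted p = 0.00496). Mmp9, gelatinase B, had 72 counts in the combination and 3 in control, a ratio of 55.6 after allowing for depth (95% exact counting interval 18.3 to 276), and it entered the test through combination libraries alone (adjusted p = 1.04e-06). Mmp3, stromelysin, rose by 2.23 ± 0.42 (adjusted p = 0.000321). Ctsb, the lysosomal protease cathepsin B, had 1659 ± 422 CPM in the combination and 833 ± 232 in control (0.99 ± 0.24, adjusted p = 0.00344). Plau, urokinase, fell (-1.74 ± 0.54, adjusted p = 0.0147), a call lost without control replicate 1, combination replicate 1 or combination replicate 3 (adjusted p up to 0.0770) and with the Bc1 covariate, where the fold change was about as large (-1.71, adjusted p = 0.0782). Plau entered the test through libraries of the other groups alone. The median of the 6 was 1.61. In all, 3 rose in the combination against anti-PD-L1, where 6.94% of all genes passed, and 4 against minP1, where 20% passed; Mmp9 is among both.

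All 4 tested genes listed for other CD44 ligands passed the test upwards in the combination against control. Of these, Has1 entered the test through combination libraries alone, and Mif is listed for its signalling through CD74 with CD44. Srgn codes for serglycin, a granule proteoglycan of leukocytes, and had 1118 ± 308 CPM in the combination and 202 ± 110 in control (2.46 ± 0.30, adjusted p = 4.03e-06). Mif, a cytokine that signals through CD74 with CD44, had 1740 ± 142 CPM in the combination, 1467 ± 115 in anti-PD-L1, 1012 ± 89.1 in minP1 and 770 ± 148 in control. It rose in the combination (1.17 ± 0.22, adjusted p = 0.000268) and in anti-PD-L1 (0.93 ± 0.21, adjusted p = 0.0357) against control. Has1, a hyaluronan synthase listed for its product, had 33 counts in the combination and 12 in control (2.69 ± 0.55, adjusted p = 0.000756), a call lost with the Bc1 covariate (adjusted p = 0.0830). Fn1, fibronectin, rose by 0.59 ± 0.22 (adjusted p = 0.0391). The Fn1 call was lost without any 1 of the controls, minP1 replicate 1, anti-PD-L1 replicate 2 or combination replicate 3 (adjusted p up to 0.159). The median of the 4 was 1.82. Of the 9 listed, 5 were not tested and summed to 24 raw counts in the combination and 64 in control. These are not scaled for depth, and mean library totals were 168872 in the combination and 378077 in control.

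**Figure D4:**
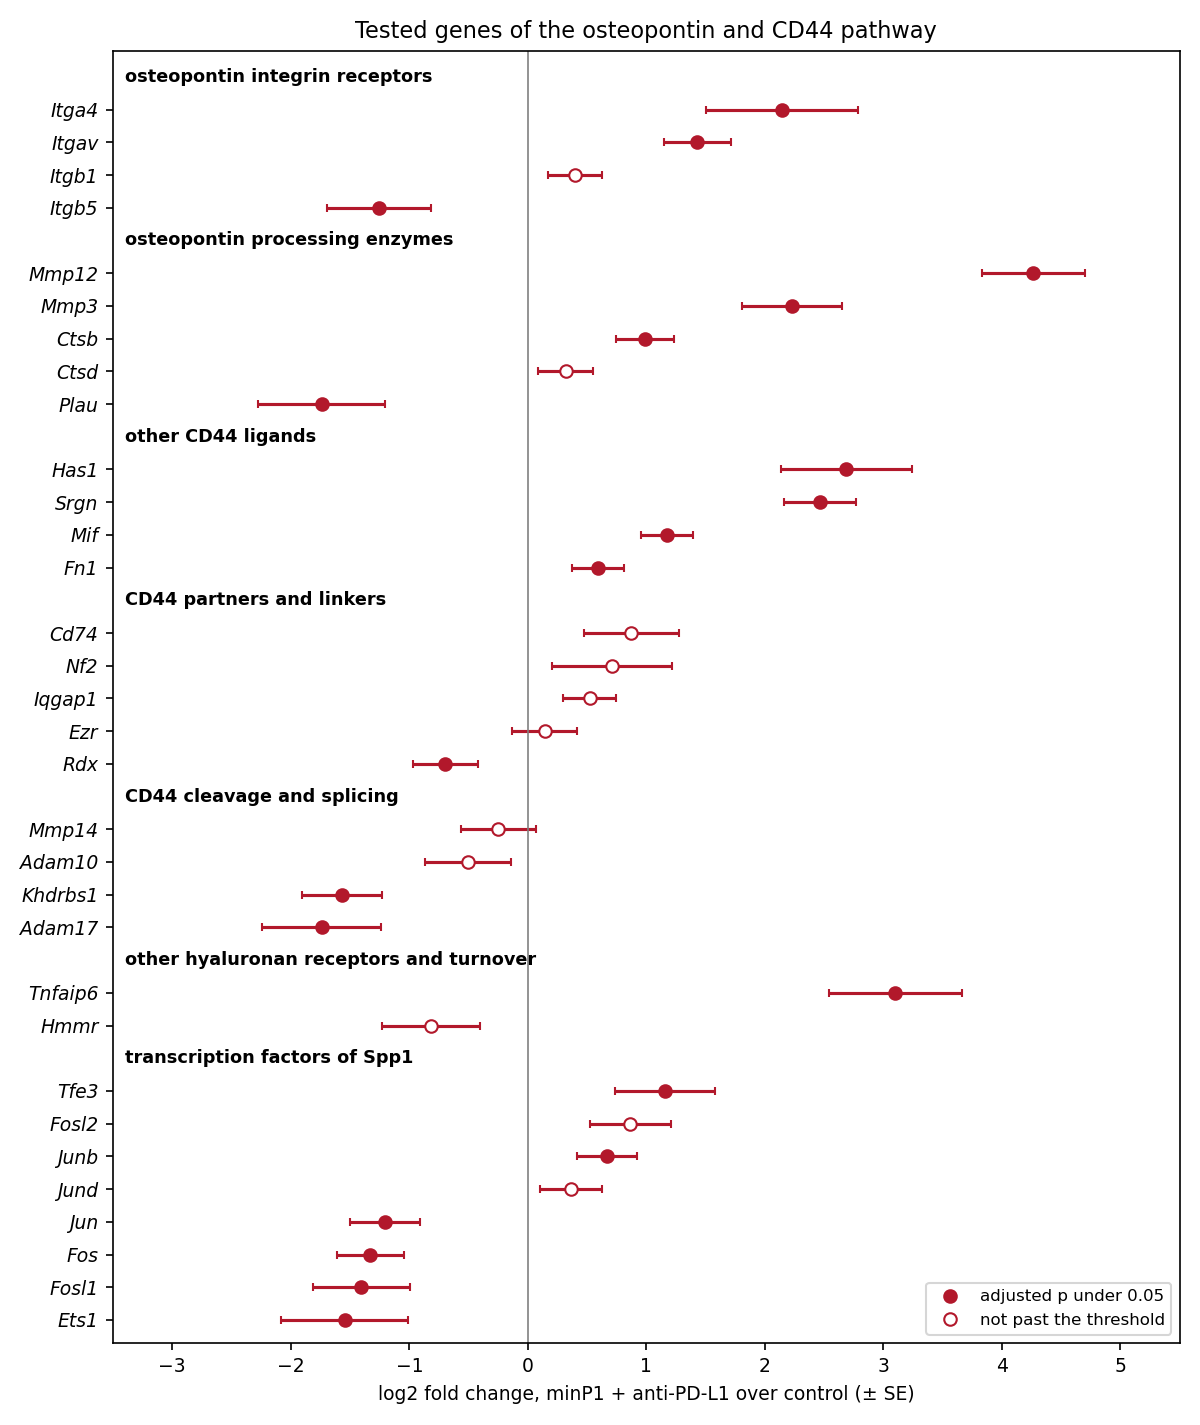
Log2 fold change of the tested pathway genes in the combination against control, with bars of 1 SE, grouped by list; filled points passed an adjusted p of 0.05 (edgeR) and open points did not. The tested genes listed for other CD44 ligands lie to the right of 0, as do Junb and Jund. Fos and Jun lie to the left, and Mmp9 is not drawn because control held only 3 counts.

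Of the partners of CD44 inside the cell and at the membrane, 5 of 7 were tested, and none passed upwards in the combination against control. Rdx, which codes for radixin, a linker between CD44 and actin, fell (-0.70 ± 0.27, adjusted p = 0.0491). The Rdx call was lost in 11 of the 12 fits that left out a library, all but the one without control replicate 1 (adjusted p up to 0.249), with DESeq2 (adjusted p = 0.0888), without anti-PD-L1 replicate 1 and minP1 replicate 2 (adjusted p = 0.0551), and with the Bc1 covariate, where the fold change was -0.61 (adjusted p = 0.246). Cd74, the invariant chain and the MIF receptor that signals with CD44, had 293 ± 117 CPM in the combination and 155 ± 119 in control (0.87 ± 0.40, adjusted p = 0.0940). Cd74 did pass without anti-PD-L1 replicate 1 and minP1 replicate 2 (adjusted p = 0.0485) and with the Bc1 covariate, where its log2 fold change was 1.78 (adjusted p = 0.00531). Of 4 tested genes that cleave CD44 or steer its splicing, 2 fell and the other 2 did not pass. Khdrbs1, or Sam68, a splicing factor that promotes inclusion of CD44 variant exons, fell (-1.57 ± 0.34, adjusted p = 0.00103). Adam17, a sheddase, fell on 9 counts in the combination and 71 in control (-1.74 ± 0.50, adjusted p = 0.00961), a call lost without combination replicate 1 (adjusted p = 0.0529) and with the Bc1 covariate (adjusted p = 0.208). Adam17 entered the test through libraries of the other groups alone. A 5′ tag does not read the variant exons, so CD44 isoforms were not measured.

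Of the other hyaluronan genes 2 of 8 were tested. Tnfaip6, or TSG-6, a secreted protein that binds hyaluronan, had 108 ± 51.5 CPM in the combination and 10.3 ± 11.3 in control (3.10 ± 0.56, adjusted p = 0.000235). Hmmr, the hyaluronan receptor RHAMM, had 49.0 ± 10.2 CPM in the combination and 85.6 ± 14.9 in control (-0.81 ± 0.41, adjusted p = 0.129), and passed with the Bc1 covariate (-1.55, adjusted p = 0.0428). Tnfaip6 had 21.7 ± 6.93 CPM in anti-PD-L1 and 23.4 ± 7.54 in minP1, and it entered the test through combination libraries alone.

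Among the transcription factors known to act on Spp1, 8 of 11 were tested, and 2 rose and 4 fell in the combination against control. Fos, a subunit of AP-1, had 126 ± 23.2 CPM in the combination and 320 ± 78.4 in control (-1.33 ± 0.28, adjusted p = 0.000919). Jun, its partner, had 167 ± 73.1 CPM in the combination and 398 ± 26.4 in control (-1.21 ± 0.30, adjusted p = 0.00305, and 0.132 with the Bc1 covariate). Both also fell in the combination against anti-PD-L1, Fos with an adjusted p of 0.0172 and Jun of 0.0379 in edgeR. Fosl1, another AP-1 subunit, fell (-1.40 ± 0.41, adjusted p = 0.0104), a call lost without combination replicate 1 (adjusted p = 0.0644). Ets1 fell (-1.54 ± 0.54, adjusted p = 0.0281), a call lost without control replicate 2, control replicate 3 or any 1 of the combination libraries (adjusted p up to 0.113), with the Bc1 covariate (adjusted p = 0.338) and with DESeq2 (adjusted p = 0.0576). Tfe3 rose (1.16 ± 0.42, adjusted p = 0.0365), with losses in the same 5 fits (up to 0.166), with the Bc1 covariate (0.471) and with DESeq2 (0.0544). Junb, also an AP-1 subunit, rose (0.67 ± 0.26, adjusted p = 0.0455). The Junb call was lost without control replicate 2 or 3, minP1 replicate 1, anti-PD-L1 replicate 2 or combination replicate 2 or 3 (adjusted p up to 0.201). It was also lost with the Bc1 covariate (0.324). The AP-1 subunits Jund (0.36 ± 0.26, adjusted p = 0.294) and Fosl2 (0.86 ± 0.34, adjusted p = 0.0517) had estimates above 0 that did not pass. The AP-1 genes thus did not move in one direction. Averaged over all libraries, Junb (1097 CPM) and Jund (853 CPM) were more abundant than Jun (325 CPM) and Fos (242 CPM). Ets1 entered the test through libraries of the other groups alone.

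Spp1 was chosen partly because macrophage genes went the other way, so the macrophage genes are given as a description with no test. Of 9 tested macrophage genes, 5 were higher in every combination library than in every control, 1 was lower in every library and 3 overlapped, beside the 45.9% of all genes whose groups did not overlap. Apoe, the lipid carrier of tissue macrophages, had 1257 ± 589 CPM in the combination and 177 ± 58.9 in control, a log2 fold change of 2.83 ± 0.33. Lyz2, the lysozyme of myeloid cells, was the 1 lower in every library, with 49.4 ± 19.8 CPM in the combination and 128 ± 15.9 in control (-1.36 ± 0.36). Summed over the 16 listed macrophage markers, all of them detected in the combination and in control, the level ranged over 2357 to 4840 CPM in the combination, 1167 to 1850 in anti-PD-L1, 997 to 1472 in minP1 and 1216 to 1459 in control. The combination, the lowest group in Spp1, had the highest macrophage marker sum in every library. Apoe alone held 1257 CPM of the mean sum of 3415 in the combination, and 177 of 1336 in control.

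Genes often described together with Spp1 in tumour macrophages were split. Of 12 tested, 8 were higher in every combination library than in every control and 3 were lower, and the groups overlapped for 1, again beside 45.9% of all genes. Trem2 and Gpnmb, also listed, had too few counts to test. Trem2 had 1 raw count in the combination and 13 in control, and Gpnmb 6 and 17, not scaled for depth. Fabp5 and Il1rn, both among the 8, entered the test through combination libraries alone, so they had to be high there. Fabp5, a fatty acid carrier, had 112 ± 17.2 CPM in the combination and 8.76 ± 2.13 in control. Hmox1, heme oxygenase 1, had 307 ± 64.5 CPM in the combination and 56.6 ± 10.1 in control, and Arg1, arginase 1, had 220 ± 61.1 in the combination and 101 ± 22.7 in control. Lgals3, galectin 3, lay on the side of Spp1, with 138 ± 49.0 CPM in the combination and 357 ± 104 in control. Cd9 and Vegfa were the other 2 lower genes. With the Bc1 covariate the log2 fold change of Lgals3 was -0.48, against -1.36 without it, that of Cd9 -0.70, against -1.43, and that of Vegfa -0.99, against -1.73. Those of the 8 higher genes stayed above 0, from 0.85 for Fn1 to 4.13 for Fabp5. Among the 8, Il1rn (1.34, against 1.74) and Inhba (2.18, against 2.44) were smaller with the covariate, and the rest were larger.

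**Figure D5:**
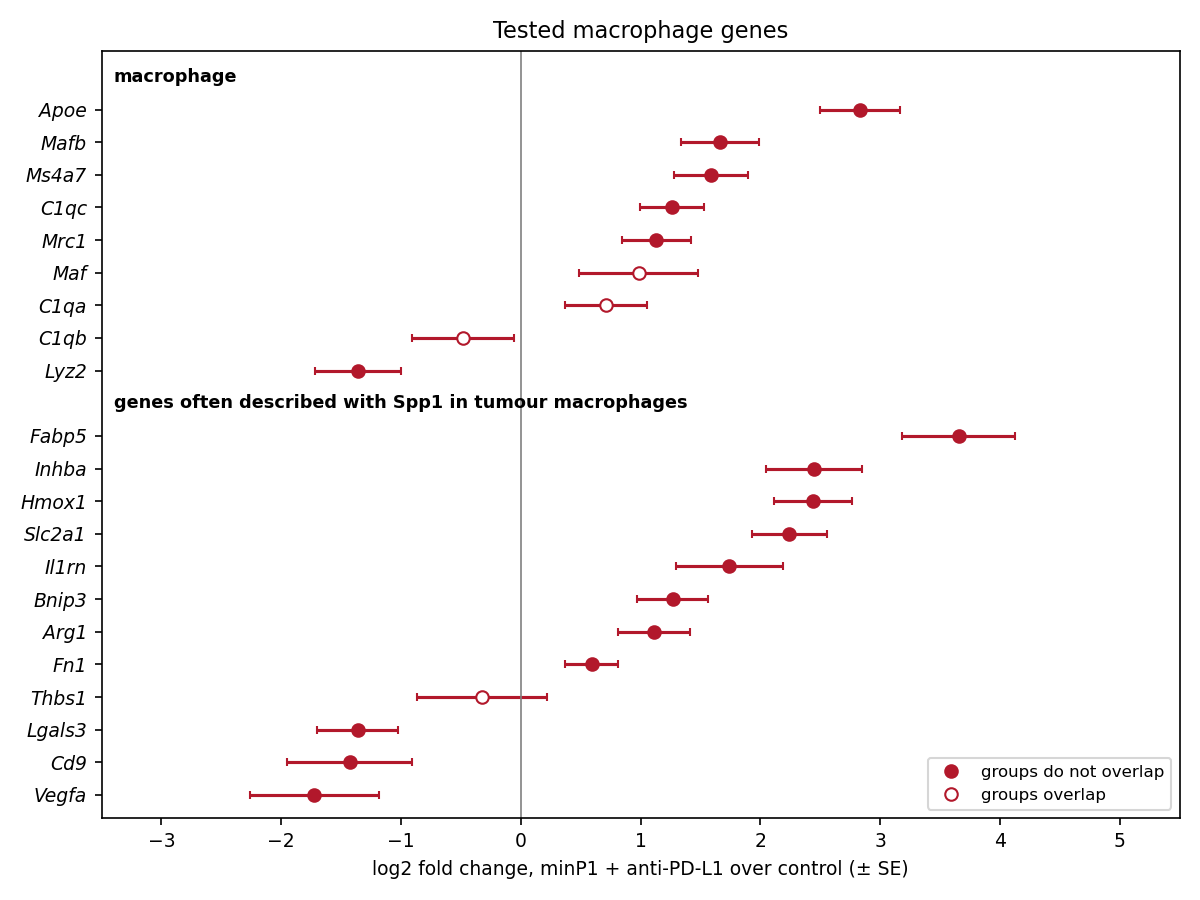
Log2 fold change in the combination against control, with bars of 1 SE, for tested macrophage genes (top) and tested genes often described with Spp1 in tumour macrophages (bottom); filled points are genes whose groups do not overlap and open points those whose groups do. Apoe (2.83) and Fabp5 (3.65) lie far to the right, and Lgals3 (-1.36) and Lyz2 (-1.36) to the left.

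Markers of other cell types that carry Spp1 or Cd44 were measured beside them. Neutrophil markers summed to 615 to 691 CPM in the combination, 238 to 319 in anti-PD-L1, 245 to 319 in minP1 and 325 to 386 in control, and of the 10 in the tables Ly6g was at 0 counts in the combination and in control, and Retnlg in the combination. Within that sum S100a9 had 175 ± 17.1 CPM in the combination and 17.5 ± 19.9 in control, and Mmp9 was high as given above, whereas Cxcr2, a chemokine receptor of neutrophils, fell to 122.8 ± 11.4 CPM in the combination, against 276 ± 33.9 in control (adjusted p = 0.00170). Monocyte markers summed to 389 to 734 CPM in the combination, 334 to 348 in anti-PD-L1, 226 to 421 in minP1 and 245 to 262 in control. T cell markers, 8 of 10 in the tables, were sparse, with 43 counts (59.7 to 113 CPM) in the combination, 28 (27.6 to 48.4 CPM) in anti-PD-L1, 22 (19.8 to 33.0 CPM) in minP1 and 19 (3.66 to 31.4 CPM) in control, where Cd4 and Cd247 were at 0. For neutrophils and T cells, as for macrophages and for Cd44, every combination library lay above every other library, and the monocyte sums of the combination overlapped those of minP1. NK cell and dendritic cell markers did not follow that order. NK cell sums were 42.7 to 56.4 CPM in the combination, below the 64.0 to 105 in minP1. Dendritic cell sums of 83.5 to 95.9 CPM in the combination lay within the 55.1 to 127 in anti-PD-L1. Epithelial markers, 8 of 11 in the tables, summed to 22 counts (25.6 to 83.5 CPM) in the combination and 35 (25.6 to 37.2 CPM) in control, with Vil1 at 0 in the combination and Krt18 in control. The other 3, Epcam, Cldn4 and Cldn7, were not analysed here, so how many Colon26 cells the Percoll layer left was not measured directly. Endothelial markers summed to 21 counts (29.8 to 76.8 CPM) in the combination and 22 (10.97 to 25.8 CPM) in control, and they too were highest in the combination libraries. Erythroid markers summed to 858 to 2274 CPM in the combination and 1377 to 2677 in control, and the beta-globin Hbb-b1 fell to 5 counts in the combination, against 198 in control (adjusted p = 4.87e-05). Hbb-b1 entered the test through libraries of the other groups alone. Fibroblast markers summed to 970 to 1468 CPM in the combination and 1119 to 1480 in control. Markers of osteoclasts and osteoblasts, the bone cells known for Spp1, summed to 12 counts (5.97 to 42.7 CPM) in the combination and 11 (0 to 25.8 CPM) in control. Ocstamp and Dcstamp were at 0 in the combination. The part of cell composition in the Spp1 and Cd44 differences was not tested.

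The genes whose pattern was most like that of each member were ranked by the root mean square difference of centred log2 CPM over the 12 libraries, among 3422 genes with a mean of at least 50 CPM. Nearest to Spp1 were Bcl10 (0.179), Pgam1 (0.185), Cox6a1 (0.186), Tuba1c (0.187) and Tcea1 (0.192), with a median over all genes of 0.598. Pgam1, a glycolytic enzyme, averaged 255 CPM in the combination, 350 in anti-PD-L1, 334 in minP1 and 340 in control. Nearest to Cd44 were Stat3 (0.222), Rnps1 (0.240), H2-K1 (0.246), Sik3 (0.255) and Slc27a1 (0.263), with a median of 0.816. H2-K1, a heavy chain of MHC class I, averaged 6527 CPM in the combination, 4000 in anti-PD-L1, 3174 in minP1 and 1736 in control. Stat3, a transcription factor downstream of many cytokine receptors, averaged 326 CPM in the combination, 148 in anti-PD-L1, 128 in minP1 and 92.7 in control. Both genes had the same order of group means as Cd44, whereas Slc27a1 averaged 130 CPM in the combination, 50.3 in anti-PD-L1, 62.1 in minP1 and 35.4 in control. Spp1 and Cd44 themselves lay 1.06 apart. Mean depth differed between the groups and handling may have differed too, so the likeness is a description.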

How the data were processed

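Total tumour cells of 12 mice were profiled by 5′-end serial analysis of gene expression on an Ion S5, per the labels' protocols. The deposited values are whole-number counts per gene symbol with no normalization, 1 table per library. The submitters' processing notes name Bowtie2 2.2.5, R 3.6.1, DESeq2 and mm10, with no roles. The sources used here do not state the counter, its annotation, its use of strand or its handling of multiply mapped reads. A tag is 1 read per transcript end, so levels were not divided by length. No molecular identifiers are recorded, so intervals cover counting error only.

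Genes were kept with filterByExpr (5443 tested, 14478 not, 89.8% to 93.6% of counts kept), scaled with TMM and tested with edgeR 4.0.16 (R 4.3.3) quasi-likelihood fits on all 12 libraries, with Benjamini-Hochberg adjustment over 5443 genes in each of 6 comparisons and a threshold of 0.05. The prior count was 0.125 and the biological coefficient of variation 22.5%. An SE is the log2 fold change divided by the root of F. The fit was tested on simulated data. An exact permutation test of 3 against 3 cannot go below 0.1, so none was used. Alternatives were DESeq2 1.42.0, scaling by totals, no filter, a replicate block, a Bc1 covariate, a fit of the 2 groups alone, and leaving out libraries. The 2 members and the 22 gene lists were chosen with earlier results of these data known, and 1 gene of the lists is not reported here. Genes named are the members, tested members of the lists and, for each member, the 5 most alike genes.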

Additional observations from a re-analysis of the deposited data

How the results depend on the processing

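Under all alternatives run, Cd44 kept its direction and its call in the 3 comparisons of the combination: 1.79 to 2.202 against control (adjusted p up to 5.88e-05, edgeR or DESeq2), 1.14 to 1.32 against minP1 (up to 0.00616) and 1.02 to 1.19 against anti-PD-L1 (up to 0.0447). Only for anti-PD-L1 against control did its call change: DESeq2 gave 0.80 (adjusted p = 0.0275), the replicate block 0.82 (adjusted p = 0.0409), and leaving out a library 0.67 to 1.10, with adjusted p from 0.0267 to 0.250. For minP1 against control the range was 0.54 to 0.99 (adjusted p from 0.143 to 0.998), and for the interaction 0.11 to 0.58 (0.523 to 1).

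Spp1 was lower in the combination under all 19 settings against each of the other groups. The Bc1 covariate moved it to -0.26 against control and -0.42 against minP1, and leaving out minP1 replicate 2 with anti-PD-L1 replicate 1 moved its interaction to -1.24; the cause was not tested. Leaving out 1 library gave -0.87 to -0.59 against control and -1.04 to -0.63 for the interaction. Against control, anti-PD-L1 was below 0 in 5 of 19 settings and minP1 in 2 of 19. The log2 ratio to Cd44 ranged from -2.93 to -2.63 in the combination against control.

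Counts of genes called moved by over 1.5 times in these cases. Without the filter, minP1 against control had 51, anti-PD-L1 against control 167 and the interaction 37. The Bc1 covariate gave 1, 30 and 35 in the same order, 782 in the combination against control and 601 against minP1. Without the 2 libraries there were 24 in anti-PD-L1 against control, 613 in the combination against anti-PD-L1 and 65 in the interaction. DESeq2 gave 1 in minP1 and 20 in the interaction. The replicate block gave 173 in anti-PD-L1 against control and 16 in the interaction. Same-numbered libraries correlated at -0.14 to 0.21, with 9 of 18 pairs over 0.1, against 7 of 36 pairs with different numbers. As not every same-numbered pair was over 0.1, the numbers were not taken to pair the mice. Depth limits the pathway lists: 4 of the 8 integrin chains and both further SIBLING genes in the tables had too few counts to test.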
